A study of Mus musculus with 23 samples.

Results

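Livers of mice with a conditional knockout of Ctnnb1, which encodes beta-catenin, in hepatocytes were compared with wild-type livers for their response to phenobarbital, on all 23 arrays of the series. The groups were knockout with phenobarbital (n = 7), knockout controls (n = 7), wild type with phenobarbital (n = 4) and wild-type controls (n = 5). All animals were male mice of the C3H strain, given in the labels also as C3H/He and as a backcross to C3H/N, and no age is stated. Treated mice ate a diet with 0.05% phenobarbital for 12 weeks, and control mice ate a diet without it for the same 12 weeks, with vehicle water named in their sample labels. The knockout combined Cre recombinase under the albumin promoter with Ctnnb1 alleles whose loxP sites flank exons 3 and 6. That promoter is active mainly in hepatocytes, and deletion by cell type was not measured here. The labels do not state that each replicate is a separate animal, so each p value here reflects only the spread among these samples, which may be technical. Of 18193 genes with a probe set of their own, 13826 passed a filter on low signal and were tested, and 121 of them (0.875%) had a phenobarbital effect that differed between the genotypes.

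Phenobarbital activates the constitutive androstane receptor (CAR, encoded by Nr1i3) in hepatocytes, and CAR then induces cytochromes P450, conjugating enzymes and transporters that clear foreign compounds. Beta-catenin carries the canonical Wnt signal into the nucleus, where it acts with factors of the TCF and LEF family. In liver it maintains the gene programme of the perivenous hepatocytes around the central vein, the zone in which many drug-metabolising enzymes and the glutamine synthetase Glul are found.

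Hepatocyte markers were high in every sample, with albumin (Alb) at 14.67 to 14.82 on the log2 scale and the hepatocyte factor Hnf4a at 11.64 to 12.10 over all 23 arrays. Ctnnb1 itself had group medians of 12.18, 12.19, 12.08 and 12.20 in knockout with phenobarbital, knockout controls, wild type with phenobarbital and wild-type controls and a knockout minus wild-type control difference of 0.05 (adjusted p = 0.54, limma). The positions of its probes relative to the deleted exons were not used here, so this value does not check the labels. Axin2, a direct target of beta-catenin, was lower in knockout controls (-0.79 relative to wild-type controls), and so was Glul (-3.51, adjusted p = 2.0e-05 and 6.5e-09, limma), as 34 of 40 listed perivenous genes were, against 10.1% of all tested genes lower in that comparison. The mean of 26 macrophage markers ranged from 7.07 to 9.09 in knockout with phenobarbital and from 7.17 to 9.53 in knockout controls, against 6.52 to 6.65 in wild type with phenobarbital and 6.50 to 7.02 in wild-type controls. Knockout controls 2, 6 and 7 lay between 9.22 and 9.53 on this measure, above the other 4 at 7.17 to 8.64, and also held the highest means of stellate cell markers (8.38 to 8.93, against 7.70 to 7.86). None of the 26 macrophage markers had the interaction called by limma, against 0.875% of all genes. None had an unadjusted p under 0.05 for it, against 10.3%. The SD of their mean was 1.07 in knockout controls and 0.80 in treated knockout. It was 0.06 in treated wild type and 0.20 in wild-type controls. With so wide a spread in knockout a difference could be missed, and the part of other cells in the results below was not tested. In these bulk samples fewer cells of a type and less RNA per cell cannot be told apart.

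The interaction was the knockout effect of phenobarbital minus the wild-type effect, on the log2 scale. It was positive in 49 genes (0.354%) and negative in 72 (0.521%) at a Benjamini-Hochberg adjusted p under 0.05. Phenobarbital changed 284 genes (2.05%) in knockout, 162 higher (1.17%) and 122 lower (0.882%), and 532 genes (3.85%) in wild type, 269 higher (1.95%) and 263 lower (1.90%). Between the control groups 3453 genes (25.0%) differed by genotype, and between the treated groups 2772 genes (20.0%). The interaction equals the treated difference between genotypes minus the control difference, so it shares its control arrays with the starting level and an error in the controls moves them in opposite directions. The starting level is therefore given beside each response as a description.

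A response was called lost where the wild-type effect and the interaction passed the threshold, the knockout effect did not, and the knockout effect was under 33.3% of the wild-type one. It was called reduced where it was smaller in knockout but passed the threshold or reached that ratio, kept where both effects passed in the same direction without a called interaction, and gained where the knockout effect and the interaction passed and the wild-type effect did not. By these rules 86 responses were lost (0.622%), 8 reduced (0.0579%), 76 kept (0.550%) and 15 gained (0.108%). Another 2 were enlarged (0.0145%), 1 was reversed (0.00723%), and 9 genes (0.0651%) had an interaction with neither effect called. A further 542 genes had an effect called in 1 genotype with no interaction called, and their response is undecided. At the thresholds, Plin4 (adjusted p = 0.0481) and Sipa1 (0.0476) lay just inside the interaction calls and Yes1 (0.0506) and Eloa (0.0589) just outside, while the knockout effect of Prss8 was 30.7% of the wild-type one (lost) and that of Cyp2b13 33.9% (reduced).

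**Figure D1:**
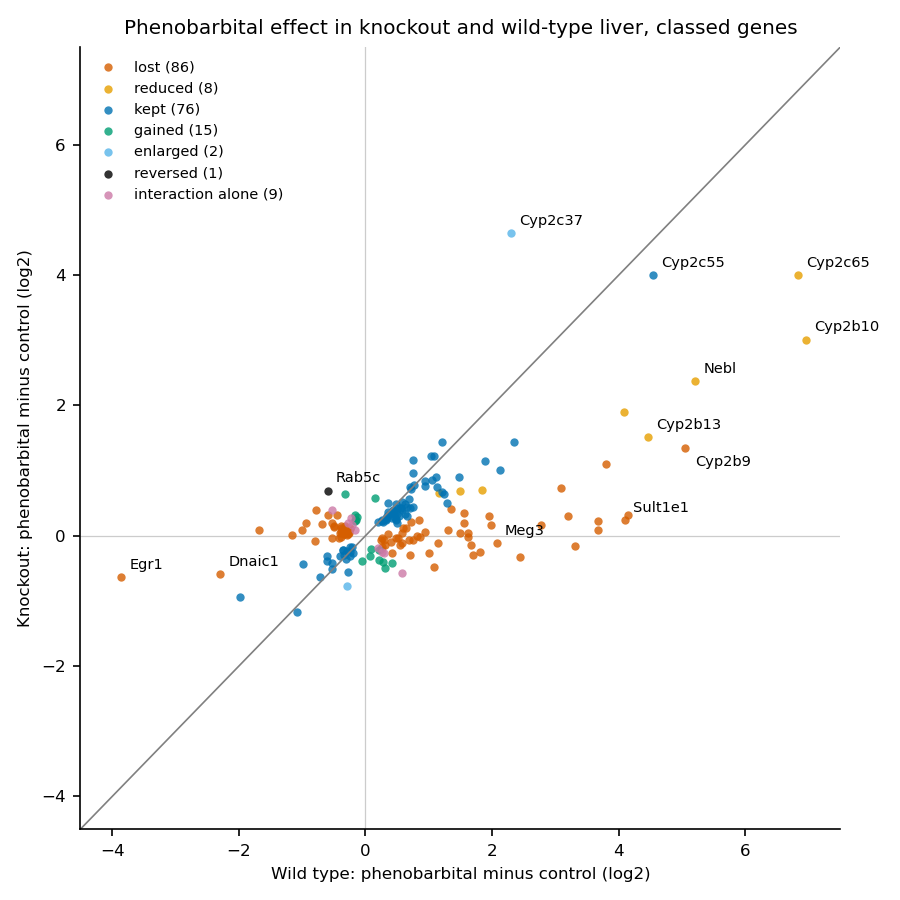
Phenobarbital effect in knockout (vertical axis, log2) against wild type (horizontal axis, log2) for the 197 genes with a class other than undecided, 1 point per gene, coloured by class, with the line of equal effects. The 86 lost responses lie nearer the horizontal zero line than the line of equal effects, with Cyp2b9 at 1.35 and Egr1 at -0.64 in knockout, Cyp2b10 and Cyp2c65 are the farthest right at 6.96 and 6.83 in wild type, and Cyp2c37 stands above the line of equal effects.

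The lost and reduced rises numbered 59, with 51 lost and 8 reduced, and the lost falls 35, while no fall was reduced. The median effect over the lost rises was -0.02 in knockout and 1.09 in wild type. The lost falls were smaller, with a median of 0.07 in knockout and -0.39 in wild type. The arrays of treated and control knockout did not overlap in 7 of the 59 lost and reduced rises, against 0.976% of all genes tested, and those of treated and control wild type did not overlap in 58 of the 59, against 11.6% of all genes. Both counts use the contrasts that defined the classes. The starting level divided the 59 rises into 20 whose knockout controls were already above wild-type controls (start ahead), 31 with no called difference (start level) and 8 below (start behind). Of all genes tested, 14.8% were higher in knockout controls and 10.1% lower. For the 20 that started ahead, the knockout controls had a median of 65.0% of the wild-type response before treatment. Of these 20 genes, 11 ended at a treated level with no called difference between genotypes, 8 ended below treated wild type and 1 above it. All 31 rises that started level and all 8 that started behind ended below treated wild type, against 8.12% of all tested genes. This end follows largely from the class rule. The treated difference is the starting difference plus the interaction, which was negative by selection.

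**Figure D2:**
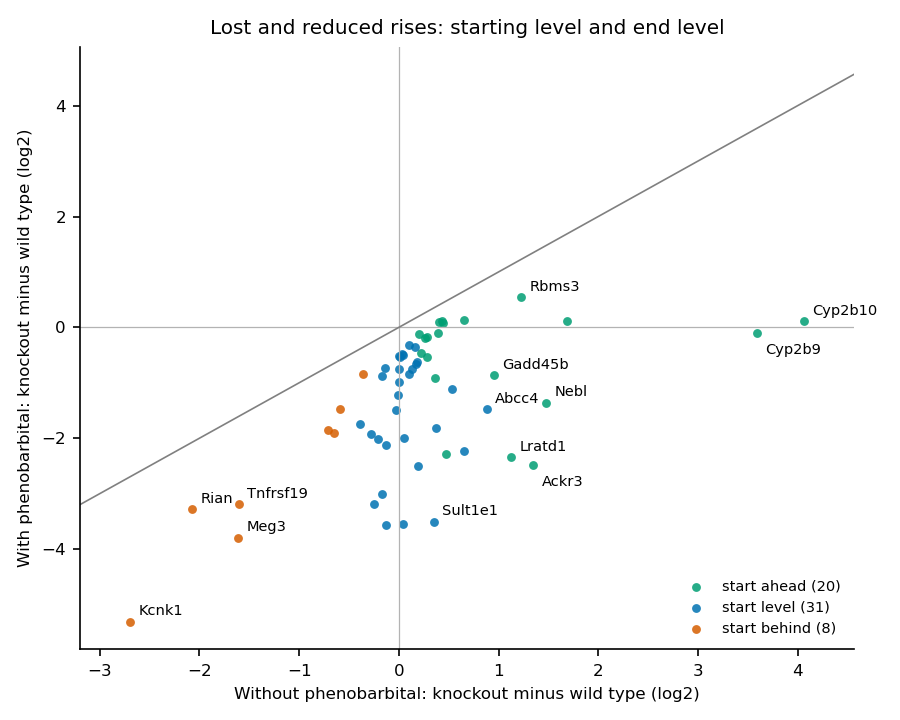
Knockout minus wild type with phenobarbital (vertical axis, log2) against knockout minus wild type without it (horizontal axis, log2) for the 59 lost and reduced rises, coloured by starting level, and the distance below the diagonal is the size of the interaction. Cyp2b10 and Cyp2b9 start at 4.06 and 3.59 and end at 0.11 and -0.10, whereas Meg3 starts at -1.61 and ends at -3.79. Sult1e1 starts level and passed the filter only with the arrays of treated wild type.

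Cyp2b10, the P450 most used as a marker of CAR activity in mouse liver, was the largest response with a raised start. Its signal ranged from 12.51 to 12.97 (median 12.82) in knockout with phenobarbital and from 7.76 to 10.62 (median 10.20) in knockout controls. In wild type it was 12.64, 12.65, 12.70 and 12.58 with phenobarbital and 6.22, 5.42, 5.22, 5.90 and 5.66 in controls. The treated groups overlapped across genotypes, while every knockout control lay above every wild-type control. Phenobarbital raised it by 3.01 in knockout and by 6.96 in wild type, an interaction of -3.95 ± 0.47 (SE, adjusted p = 4.0e-05, limma). Knockout controls stood 4.06 above wild-type controls, which is 58.4% of the wild-type response, and treated knockout reached 102% of it. All 3 probe sets of the gene had the interaction called in that direction, and it was -4.45 without knockout controls 2, 6 and 7.

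Cyp2b9, a female-biased P450 of the same cluster on chromosome 7, was at 6.73 to 10.46 (median 8.89) in knockout with phenobarbital and 6.01 to 9.21 (median 8.02) in knockout controls. Wild type had 8.96, 9.78, 9.40 and 8.08 with phenobarbital and 4.17, 4.01, 3.84, 4.31 and 3.73 in controls, where every array was below the filter level. Treated and control knockout overlapped over most of their range, and all of them were above the wild-type controls. Its effect was 1.35 in knockout (adjusted p = 0.20) and 5.04 in wild type, with an interaction of -3.69 ± 0.82 (adjusted p = 0.030, limma). The call is less firm than that of Cyp2b10: it was lost in 9 of the 23 fits that left out 1 array (knockout with phenobarbital 6 or 7, wild type with phenobarbital 1, 2 or 3, wild-type control 1, 2, 3 or 5), with an adjusted p of up to 0.0856. Cyp2b13, their neighbour and also female-biased, had no called difference between control groups (-0.24, adjusted p = 0.72).

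Cyp2b13 was at 5.35 to 8.92 (median 5.64) in knockout with phenobarbital and 4.65 to 5.07 (median 4.81) in knockout controls, against 9.36, 10.38, 10.15 and 8.25 in wild type with phenobarbital and 4.88, 5.05, 5.19, 5.29 and 4.97 in wild-type controls. The control groups overlapped, and 1 treated knockout array, replicate 5 at 8.92, lay inside the range of treated wild type while the other 6 lay below it. The effect was 1.51 in knockout (adjusted p = 0.057) and 4.46 in wild type, with an interaction of -2.95 ± 0.66 (adjusted p = 0.031, limma). The call held in 13 of the 23 fits that left out 1 array, and was lost without knockout with phenobarbital 1, 2, 6 or 7, wild-type control 1, 2 or 5, or wild type with phenobarbital 1, 2 or 3, with an adjusted p of up to 0.101. Each of Cyp2b9 and Cyp2b13 had 1 probe set, and whether it also reads the RNA of its neighbour was not tested.

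The promoter windows of the 3 Cyp2b genes are shown because the genes all rose with phenobarbital in wild type, while 2 of them had a raised start in knockout. Each runs from 250 bases before to 50 after the gene start in the RefSeq table for GRCm38.p6, on the plus strand, at chr7:25897408-25897707 for Cyp2b10, chr7:26173159-26173458 for Cyp2b9 and chr7:26061245-26061544 for Cyp2b13. Capitals mark AGGTCA or AGTTCA, the half-sites that nuclear receptors such as CAR can bind, and CTTTGA, the core bound by TCF and LEF factors, on either strand.
Cyp2b10: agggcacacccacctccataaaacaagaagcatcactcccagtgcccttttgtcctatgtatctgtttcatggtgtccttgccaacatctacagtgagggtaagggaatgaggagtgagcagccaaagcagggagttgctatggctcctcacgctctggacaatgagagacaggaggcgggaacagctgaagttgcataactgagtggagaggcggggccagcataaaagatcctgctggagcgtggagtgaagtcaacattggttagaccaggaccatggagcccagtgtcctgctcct
Cyp2b9: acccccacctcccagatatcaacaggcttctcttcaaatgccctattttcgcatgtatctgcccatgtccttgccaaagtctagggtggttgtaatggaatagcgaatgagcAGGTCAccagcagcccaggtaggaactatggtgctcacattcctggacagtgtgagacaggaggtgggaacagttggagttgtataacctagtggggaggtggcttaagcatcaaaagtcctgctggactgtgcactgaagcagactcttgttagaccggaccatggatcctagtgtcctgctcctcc
Cyp2b13: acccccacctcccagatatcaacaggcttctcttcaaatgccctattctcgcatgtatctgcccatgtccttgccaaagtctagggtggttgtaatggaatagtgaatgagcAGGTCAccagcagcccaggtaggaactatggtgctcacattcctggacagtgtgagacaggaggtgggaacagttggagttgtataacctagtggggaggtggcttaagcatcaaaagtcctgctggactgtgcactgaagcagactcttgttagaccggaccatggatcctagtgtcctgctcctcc
The windows of Cyp2b9 and Cyp2b13 were identical at 298 of 300 aligned bases (99.3%), and that of Cyp2b10 shared 80.1% of 286 aligned bases with each. Cyp2b9 and Cyp2b13 each held 1 half-site, 138 bases before the gene start, and none of the 3 held CTTTGA. These letters say nothing about binding outside the window, such as at the distal enhancer through which CAR is known to act on Cyp2b10.

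The other 9 rises that started ahead and ended level were Afap1l2, Zfp750, Zfp324, Plxnb2, Sipa1, Mst1, Napa, F10 and Zfp106, of which Afap1l2 had the largest interaction at -1.56 and the others lay between -0.51 and -0.31. The wild-type controls of Afap1l2, at 3.41 to 4.25, were all below the filter level, so the size of its start and interaction is uncertain. Its knockout controls 2, 6 and 7 were at 5.82, 6.02 and 6.16, and its other knockout controls at 4.72 to 5.21. F10 encodes coagulation factor X and Mst1 the macrophage-stimulating protein, both secreted by hepatocytes. These genes, and those named below from classes without array values, were chosen after their values were seen. The median over the 20 rises with a raised start was -0.07 in knockout and 0.66 in wild type.

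Of the 8 rises with a raised start that still ended short, Nebl, which encodes the actin-binding protein nebulette, kept a part of its response. Its signal was 7.81 to 8.46 (median 8.07) in knockout with phenobarbital and 5.18 to 6.25 (median 5.86) in knockout controls. Wild type had 9.23, 9.54, 9.65 and 9.44 with phenobarbital and 4.10, 4.32, 4.69, 4.32 and 3.90 in controls, so no pair of groups overlapped. Phenobarbital raised it by 2.37 in knockout and 5.20 in wild type (interaction -2.83 ± 0.26, adjusted p = 5.4e-07, limma), and treated knockout stood at 73.9% of the wild-type response where knockout controls stood at 28.4%. Most wild-type controls of Nebl lay below the filter level, so the wild-type response and both shares rest on values near background.

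Ackr3, an atypical chemokine receptor that binds and clears CXCL12, was at 4.75 to 7.66 (median 5.86) in knockout with phenobarbital and 4.61 to 6.42 (median 5.66) in knockout controls, against 8.55, 8.97, 8.05 and 8.21 in wild type with phenobarbital and 4.16, 4.44, 4.62, 3.83 and 4.42 in wild-type controls. The 2 knockout groups overlapped, and both lay below every treated wild-type array. Most of its wild-type controls lay below the filter level. The effect was 0.31 in knockout and 4.15 in wild type (interaction -3.84 ± 0.54, adjusted p = 0.00035, limma). Knockout controls had 32.5% of the wild-type response, a share that is uncertain with those controls near background. Lratd1 gave the same picture, with 5.09 to 6.01 (median 5.49) in knockout with phenobarbital and 5.23 to 6.28 (median 5.73) in knockout controls, and 7.70, 8.22, 8.10 and 7.45 in wild type with phenobarbital and 4.54, 4.58, 4.92, 4.22 and 4.54 in wild-type controls. All knockout arrays of Lratd1 lay between the wild-type groups. Its interaction was -3.47 ± 0.29 (adjusted p = 1.5e-07, limma).

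Gadd45b, a stress-induced growth arrest gene, was at 6.69 to 7.92 (median 7.27) in knockout with phenobarbital and 6.71 to 8.10 (median 7.09) in knockout controls, against 8.41, 8.30, 7.99 and 8.18 in wild type with phenobarbital and 6.35, 6.24, 5.79, 6.80 and 6.02 in wild-type controls. Treated knockout stayed below every treated wild-type array, and its interaction was -1.82 ± 0.31 (adjusted p = 0.0031, limma). Fam171a1, Reep1 (-1.27 in interaction), Sgpl1 (-0.82), which encodes sphingosine phosphate lyase, and Bin3 (-0.68) were the other members. Fam171a1 was at 3.93 to 4.40 in treated knockout, 4.13 to 4.59 in knockout controls and 3.56 to 4.26 in wild-type controls. Reep1 was at 4.17 to 4.63, 4.63 to 4.90 and 4.09 to 4.59 in these groups. Most of these values lie near or below the filter level of 4.52 to 4.60, so the raised start and interaction size of both genes are uncertain. All 8 kept the interaction call in each of the 23 fits that left out 1 array. For Fam171a1 this is no support, because it passed the filter only with the arrays of treated wild type. Rbms3 was the single gene that started ahead and also ended above treated wild type, by 0.55.

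**Figure D3:**
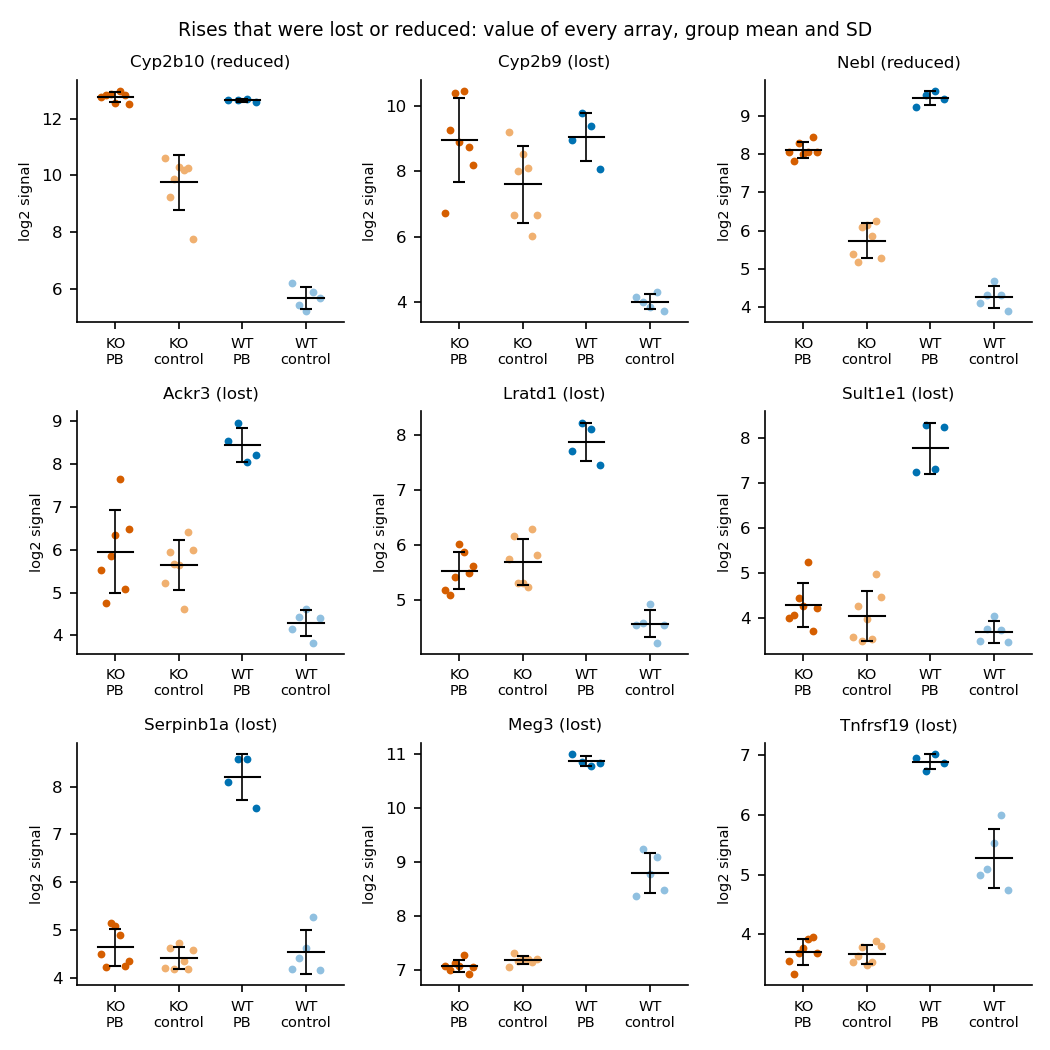
Log2 signal of 9 lost or reduced rises in every array, by group, with points for arrays, horizontal bars for group means and error bars for 1 SD. Knockout controls sit above wild-type controls for Cyp2b10, Cyp2b9, Nebl, Ackr3 and Lratd1 (start ahead), beside them for Sult1e1 and Serpinb1a, and below them for Meg3 and Tnfrsf19.

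Sult1e1 and Serpinb1a were among the 31 rises with a level start. Sult1e1, the estrogen sulfotransferase, was at 3.70 to 5.25 (median 4.21) in knockout with phenobarbital and 3.48 to 4.98 (median 3.97) in knockout controls. Wild type had 7.24, 8.31, 7.32 and 8.24 with phenobarbital and 3.47, 3.74, 4.04, 3.72 and 3.45 in controls, and the controls were all below the filter level. Treated wild type stood apart from the other 3 groups, which overlapped. Sult1e1 would not have passed the filter without the arrays of treated wild type. Its place among the lost rises follows from that, and no size or p of its interaction is given.

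Pnliprp1, a pancreatic lipase-related protein, was at 2.94 to 3.39 (median 3.27) in knockout with phenobarbital and 2.96 to 3.30 (median 3.17) in knockout controls, against 6.82, 6.89, 6.76 and 6.60 in wild type with phenobarbital and 3.18, 3.02, 3.07, 3.21 and 3.00 in wild-type controls. It was below the filter level on every array of the other 3 groups, so it passed the filter through the 4 arrays of treated wild type alone. Its place among the lost rises follows from that, and no size or p of its interaction is given. Serpinb1a, an inhibitor of neutrophil serine proteases, was at 4.23 to 5.13 (median 4.49) in knockout with phenobarbital and 4.18 to 4.72 (median 4.34) in knockout controls. Wild type had 8.10, 8.57, 8.57 and 7.55 with phenobarbital and 4.17, 4.42, 4.63, 5.27 and 4.17 in controls. Treated wild type again stood apart. Its interaction was -3.44 ± 0.31 (adjusted p = 4.9e-07, limma), and both probe sets of the gene had it called.

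Cyp2c65, a P450 of the cluster on chromosome 19, kept part of its response from a level start. It was at 5.93 to 8.03 (median 7.11) in knockout with phenobarbital and 2.93 to 3.33 (median 3.10) in knockout controls, against 10.17, 10.08, 10.16 and 9.98 in wild type with phenobarbital and 2.98, 3.24, 3.44, 3.37 and 3.31 in wild-type controls. Both control groups were below the filter level on all arrays, and treated knockout lay between them and treated wild type without overlap. The effect was 4.0 in knockout and 6.83 in wild type (interaction -2.83 ± 0.37, adjusted p = 0.00013, limma). Since both starts were at background, these effects are on the scale of the deposited values and may understate the change. Ces2a, a carboxylesterase, had an effect of 0.69 in knockout and 1.49 in wild type, and its interaction call held in 6 of the 23 fits that left out 1 array, with an adjusted p of up to 0.105.

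Prom1, which encodes the progenitor marker CD133 and is female-biased in liver, was at 4.99 to 6.65 (median 5.63) in knockout with phenobarbital and 4.76 to 6.57 (median 5.16) in knockout controls. Wild type had 8.11, 8.18, 8.27 and 7.37 with phenobarbital and 5.20, 4.51, 4.38, 4.88 and 4.95 in controls, and only treated wild type stood apart. Its interaction was -2.89 ± 0.48 (adjusted p = 0.0028, limma). The mean of the 13 cholangiocyte and progenitor markers, of which Prom1 is one, was 6.55 to 7.21 in knockout with phenobarbital and 6.51 to 7.20 in knockout controls, against 6.30 to 6.40 in wild type with phenobarbital and 6.27 to 6.49 in wild-type controls. Abcc4, an exporter of conjugates and bile acids, had an effect of 0.73 in knockout and 3.08 in wild type (interaction -2.35 ± 0.52, adjusted p = 0.028, limma). That call ended without knockout controls 2, 6 and 7 (adjusted p = 0.060) and in 7 of the 23 fits that left out 1 array (knockout with phenobarbital 6, wild-type control 2 or 4, and each treated wild-type array), with an adjusted p of up to 0.0687.

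Ighm, the immunoglobulin M heavy chain of B cells, was at 7.80 to 9.03 (median 8.49) in knockout with phenobarbital and 8.31 to 9.19 (median 8.74) in knockout controls, against 10.63, 10.38, 10.61 and 10.72 in wild type with phenobarbital and 9.03, 9.26, 10.12, 7.94 and 8.12 in wild-type controls. Treated wild type lay above all other arrays. Its interaction was -1.99 ± 0.40 (adjusted p = 0.016, limma). It was the 1 of 13 lymphocyte markers with a called interaction, against 0.875% of all genes. Of the 4 Ighm probe sets above the filter, 2 had it called. The mean of the 13 markers was 5.18 to 6.00 in knockout with phenobarbital and 5.20 to 6.22 in knockout controls, against 5.19 to 5.30 in wild type with phenobarbital and 5.0 to 5.22 in wild-type controls. Other rises lost from a level start were Cyp2d12 (-2.69), Cyfip2 (-2.06), the hypoxia-responsive Ndrg1 (-1.80), Ccn4 (-1.64), a Wnt-induced secreted protein, the host RNA Snhg11 (-1.64) and the keratin Krt4 (-1.45).

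The 8 rises that started behind were led by genes whose knockout level was low with and without phenobarbital. Meg3 and Rian are long RNAs made from the maternal chromosome 12 within the imprinted Dlk1-Dio3 locus. Meg3 was at 6.93 to 7.27 (median 7.08) in knockout with phenobarbital and 7.06 to 7.31 (median 7.20) in knockout controls, against 11.00, 10.86, 10.78 and 10.83 in wild type with phenobarbital and 8.37, 9.24, 8.78, 9.09 and 8.49 in wild-type controls. No knockout array reached a wild-type array, and the 2 knockout groups overlapped. Phenobarbital changed it by -0.11 in knockout and 2.07 in wild type (interaction -2.18 ± 0.16, adjusted p = 1.8e-08, limma), and 8 of its 11 probe sets had the interaction called lower. Rian was at 4.46 to 4.81 (median 4.68) in knockout with phenobarbital and 3.77 to 4.92 (median 4.33) in knockout controls, against 8.03, 8.27, 7.89 and 7.58 in wild type with phenobarbital and 5.99, 6.76, 6.55, 6.74 and 5.90 in wild-type controls. Its interaction of -1.20 ± 0.26 (adjusted p = 0.023, limma) lost the call without wild-type control 1 or wild type with phenobarbital 1, 2 or 3, with an adjusted p of up to 0.0673. Mirg, the other RNA of the region that was tested, had an interaction of -0.11 (adjusted p = 0.81) and was lower in knockout controls (-0.45 relative to wild-type controls).

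The promoter window of Meg3 is shown because its response was lost from a lowered start. It lies at chr12:109540746-109541045 on the plus strand (RefSeq, GRCm38.p6, the first window listed for the gene), with CTTTGA on either strand in capitals.
Meg3: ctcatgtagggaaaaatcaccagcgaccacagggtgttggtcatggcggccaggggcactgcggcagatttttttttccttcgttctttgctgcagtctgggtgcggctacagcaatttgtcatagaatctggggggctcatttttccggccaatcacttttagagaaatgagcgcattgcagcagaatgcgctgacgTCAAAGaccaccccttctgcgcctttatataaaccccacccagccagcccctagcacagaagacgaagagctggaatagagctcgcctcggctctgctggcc
The window held 1 match, TCAAAG, the reverse complement of the core, 52 bases before the gene start, as 12.7% of the windows of all tested genes do at some position.

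Tnfrsf19, a receptor of the tumour necrosis factor family and known Wnt target, was at 3.34 to 3.96 (median 3.69) in knockout with phenobarbital and 3.48 to 3.88 (median 3.64) in knockout controls, all below the filter level. Wild type had 6.95, 6.73, 7.02 and 6.86 with phenobarbital and 4.99, 5.10, 5.53, 6.00 and 4.74 in controls. The wild-type groups did not overlap. Its interaction was -1.58 ± 0.23 (adjusted p = 0.00037, limma). Because both knockout groups were at background, a remaining response there was not detectable by these probes. Sema3e, a secreted semaphorin, had effects of 0.70 in knockout and 1.84 in wild type (interaction -1.14 ± 0.25, adjusted p = 0.030, limma), with a call that ended without knockout controls 2, 6 and 7 (adjusted p = 0.055), and in 6 of 23 fits that left out 1 array (knockout with phenobarbital 7, wild-type control 1, 3 or 4, wild type with phenobarbital 2 or 4). Kcnk1, a potassium channel, had the lowest treated level relative to wild type of the 59, at -5.31, from a start of -2.69. Its knockout arrays were at 4.40 to 4.92 with phenobarbital and 4.38 to 4.77 in controls. These values lie near the filter level of 4.52 to 4.60, so a weak rise of Kcnk1 in knockout could be missed.

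Egr1, an immediate-early zinc finger transcription factor, was the largest lost fall. Its signal was 8.66 to 11.12 (median 10.26) in knockout with phenobarbital and 9.73 to 12.00 (median 10.80) in knockout controls, against 7.53, 6.92, 6.64 and 6.52 in wild type with phenobarbital and 10.67, 11.09, 10.85, 10.25 and 10.92 in wild-type controls. Treated wild type lay below every other array, and the start was level. Phenobarbital changed it by -0.64 in knockout (adjusted p = 0.43) and -3.85 in wild type (interaction 3.22 ± 0.57, adjusted p = 0.0047, limma). Of the 31 immediate-early genes tested, Egr1 and Gadd45b had the interaction called, in opposite directions, against 0.875% of all genes, and 13 of the 31 were higher in knockout controls, where 14.8% of all genes were.

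The 35 lost falls started ahead (already low in knockout controls) in 15 genes, level in 18 and behind in 2, and 6 of the 15 ended with no called difference between treated groups. Of all genes tested, 10.1% were lower in knockout controls and 14.8% higher. Dnaic1, an axonemal dynein chain, was at 4.29 to 5.19 (median 4.70) in knockout with phenobarbital and 4.51 to 5.61 (median 5.34) in knockout controls, against 5.09, 4.58, 4.54 and 4.64 in wild type with phenobarbital and 6.63, 7.63, 7.33, 6.81 and 6.65 in wild-type controls. All groups but wild-type controls overlapped. Its effect was -0.59 in knockout and -2.30 in wild type (interaction 1.70 ± 0.29, adjusted p = 0.0031, limma), and knockout controls were already at 77.3% of the wild-type fall. Treated arrays of both genotypes lay near the filter level of 4.52 to 4.60, so a larger fall of Dnaic1 in knockout could hardly register. Tspyl4 was at 6.03 to 7.59 (median 6.53) in knockout with phenobarbital and 6.10 to 6.78 (median 6.46) in knockout controls. Wild type had 6.70, 6.34, 6.42 and 6.94 with phenobarbital and 7.97, 8.13, 9.01, 8.16 and 8.10 in controls, so its knockout controls stood at 108% of the wild-type fall (interaction 1.77 ± 0.32, adjusted p = 0.0064, limma). Both knockout groups lay below all wild-type controls.

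Lgr5, the R-spondin receptor, and Slc1a2, a glutamate transporter, are perivenous genes that fell with phenobarbital in wild type. Lgr5 was at 4.27 to 4.67 (median 4.54) in knockout with phenobarbital and 4.21 to 4.60 (median 4.44) in knockout controls, against 5.42, 5.60, 5.27 and 5.73 in wild type with phenobarbital and 6.97, 6.86, 6.40, 6.30 and 6.03 in wild-type controls. No 2 groups overlapped except the knockout pair, and the knockout start was at 210% of the wild-type fall, near the filter level of 4.56, so a further fall could hardly register. Its interaction was 1.09 ± 0.19 (adjusted p = 0.0038, limma) on 1 of its 2 probe sets above the filter, and the other had the opposite sign and was not called. Slc1a2 had an interaction of 1.16 ± 0.27 (adjusted p = 0.035, limma) with a start at 212% of the wild-type fall, and this call held in 8 of the 23 fits that left out 1 array (adjusted p of up to 0.102) and ended without knockout controls 2, 6 and 7 (0.079).

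Aldh1b1, a mitochondrial aldehyde dehydrogenase listed as periportal, started behind, with 10.61 to 11.18 (median 10.69) in knockout with phenobarbital and 9.93 to 11.11 (median 10.13) in knockout controls, against 8.25, 8.92, 8.19 and 8.30 in wild type with phenobarbital and 9.20, 9.21, 9.34, 9.43 and 8.80 in wild-type controls. All knockout arrays lay above all wild-type arrays. Knockout minus wild type was 2.36 with phenobarbital and 1.19 without it (interaction 1.17 ± 0.27, adjusted p = 0.032, limma), called in 11 of the 23 fits that left out 1 array. The falls lost from a level start were otherwise small, from Qsox1 at 0.73 to Chd8 at 0.30 in interaction. They included the cell cycle inhibitor Cdkn1b (0.43) and the chromatin factors Bptf (0.41) and Phf14 (0.39).

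Among the 76 kept responses, 56 rose and 20 fell in both genotypes. An interaction that was not called does not show equal effects, but its 95% interval lay within 1 on the log2 scale in 48 of the 56 rises and 19 of the 20 falls, and within 0.5 in 29 and 14. Their median effect was 0.44 in knockout and 0.60 in wild type for rises, and -0.31 in knockout and -0.36 in wild type for falls. Kept responses also had unequal starts, with 11 rises ahead, 31 level and 14 behind, and 13 of those 14 ended below treated wild type. Over all genes, 14.8% were higher and 10.1% lower in knockout controls, and 8.12% were lower in treated knockout than in treated wild type.

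Cyp2c55, a P450 of the same chromosome 19 cluster as Cyp2c65, was at 12.00 to 12.78 (median 12.70) in knockout with phenobarbital and 6.83 to 9.73 (median 8.56) in knockout controls. Wild type had 12.88, 12.83, 12.94 and 12.82 with phenobarbital and 7.94, 8.30, 8.36, 8.98 and 8.08 in controls. Treated and control arrays were apart in both genotypes, and the controls overlapped across genotypes. The effects were 4.0 in knockout and 4.53 in wild type, with an interaction of -0.54 ± 0.47 (adjusted p = 0.80, limma). Gsta2, a glutathione S-transferase, was at 12.65 to 13.05 (median 12.92) in knockout with phenobarbital and 10.72 to 12.45 (median 11.63) in knockout controls, against 12.44, 12.58, 12.44 and 12.34 in wild type with phenobarbital and 11.14, 11.21, 11.46, 11.75 and 11.25 in wild-type controls. Its effects were 1.22 in knockout and 1.09 in wild type (interaction 0.13 ± 0.33, adjusted p = 0.96).

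The glutathione transferase Gstt3 rose by 1.14 in knockout and 1.90 in wild type, Cyp2g1 by 1.23 in knockout and 1.04 in wild type from a start of -1.22, and chondromodulin (Cnmd) by 1.44 in knockout and 2.34 in wild type from a start of -1.42. Cnmd was no longer in the class when knockout controls 2, 6 and 7 were left out. Kept falls included Ang, a secreted ribonuclease of the perivenous list, with -1.17 in knockout and -1.08 in wild type, from a start of -2.14. Dpy19l3 changed by -0.63 in knockout and -0.71 in wild type from a start of -2.33, the phosphodiesterase Pde7b by -0.52 in knockout and -0.53 in wild type from a level start, and Enho, which encodes the peptide adropin, by -0.94 in knockout and -1.98 in wild type.

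Cyp2c37, a further P450 of the chromosome 19 cluster and a perivenous gene, had a larger response in knockout. It was at 11.08 to 12.30 (median 11.47) in knockout with phenobarbital and 5.66 to 8.39 (median 7.02) in knockout controls. Wild type had 13.19, 13.34, 13.37 and 13.25 with phenobarbital and 10.45, 11.19, 11.03, 11.65 and 10.63 in controls, so treated knockout overlapped wild-type controls and stayed below treated wild type. The effect was 4.64 in knockout and 2.30 in wild type (interaction 2.34 ± 0.51, adjusted p = 0.024, limma), from a start of -4.0. The call ended without wild-type control 2 or wild type with phenobarbital 1, 3 or 4, with an adjusted p of up to 0.0605. Cyp2c50 (3.00 in knockout, 1.02 in wild type) and Cyp2c54 (3.24 in knockout, 1.95 in wild type) had the knockout effect alone called, with no interaction called (adjusted p = 0.25 and 0.71). Nipbl, the cohesin loader, fell by 0.77 in knockout and by 0.30 in wild type from a level start (interaction -0.48 ± 0.09, adjusted p = 0.0076, limma), in 1 of its 5 probe sets above the filter, of which 3 had that sign.

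Rab5c, a GTPase of early endosomes, changed in opposite directions. Its signal was 8.79 to 9.31 (median 9.09) in knockout with phenobarbital and 8.15 to 8.67 (median 8.44) in knockout controls, against 8.08, 8.23, 8.06 and 8.27 in wild type with phenobarbital and 8.79, 8.99, 8.27, 8.91 and 8.83 in wild-type controls. Treated knockout lay above all its controls, and treated wild type at or below its own. It rose by 0.69 in knockout and fell by 0.60 in wild type (interaction 1.29 ± 0.17, adjusted p = 0.00016, limma).

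**Figure D4:**
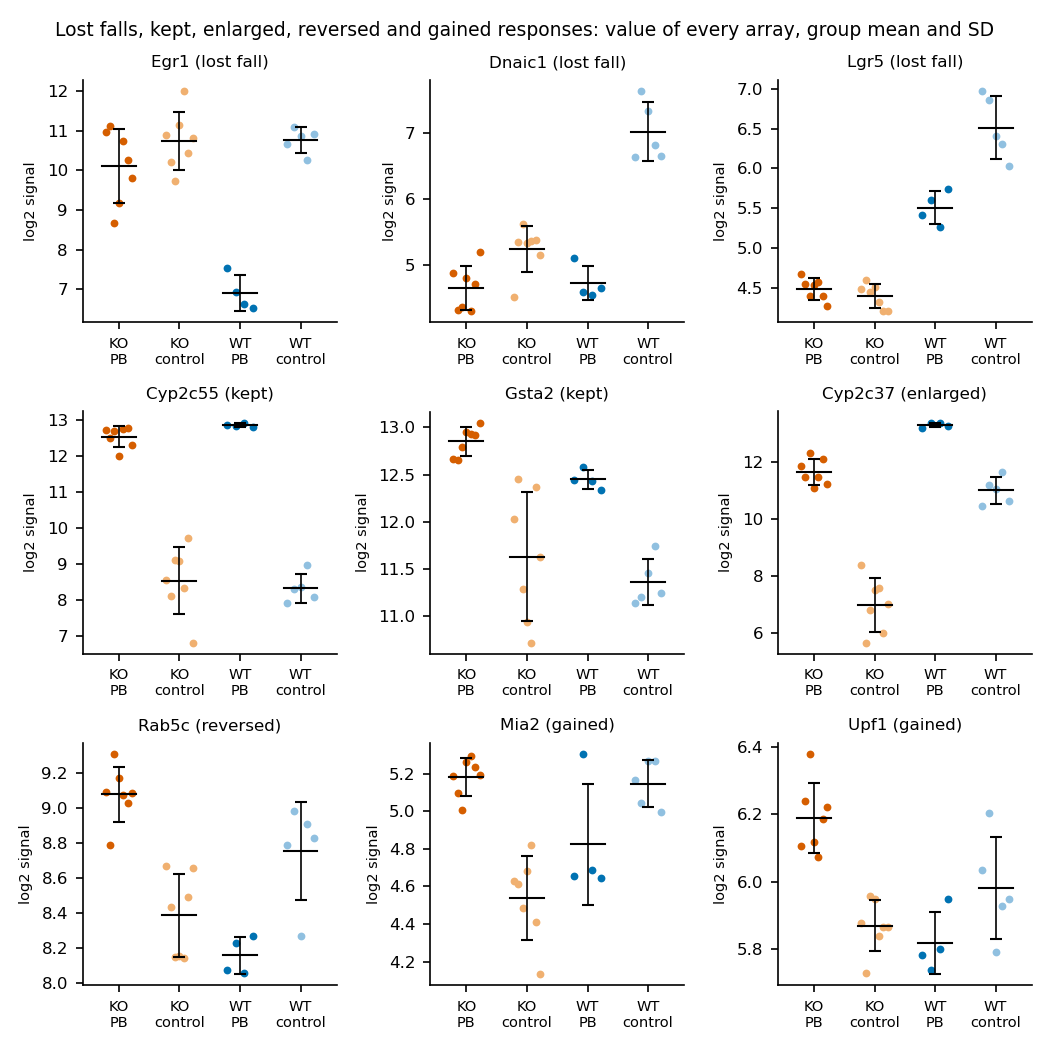
Log2 signal of 9 genes with lost falls (Egr1, Dnaic1, Lgr5), kept rises (Cyp2c55, Gsta2), an enlarged rise (Cyp2c37), a reversed response (Rab5c) and gained rises (Mia2, Upf1) in every array, by group, with points for arrays, horizontal bars for group means and error bars for 1 SD. Treated wild-type Egr1 lies at 6.52 to 7.53, below all other arrays, and Cyp2c37 spans 5.66 to 8.39 in knockout controls.

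The 15 gained responses, 7 rises and 8 falls, were small, with a median knockout effect of 0.29 for rises and -0.38 for falls, and none started ahead. Mia2, which helps large cargo leave the endoplasmic reticulum, was at 5.01 to 5.30 (median 5.19) in knockout with phenobarbital and 4.13 to 4.82 (median 4.61) in knockout controls, against 4.66, 5.30, 4.69 and 4.64 in wild type with phenobarbital and 5.16, 5.05, 5.26, 5.26 and 5.0 in wild-type controls. Its effect was 0.64 in knockout and -0.32 in wild type (interaction 0.97 ± 0.16, adjusted p = 0.0029, limma). Upf1, the helicase of nonsense-mediated decay, was at 6.07 to 6.38 (median 6.19) in knockout with phenobarbital and 5.73 to 5.96 (median 5.87) in knockout controls, against 5.78, 5.74, 5.80 and 5.95 in wild type with phenobarbital and 6.03, 6.20, 5.79, 5.93 and 5.95 in wild-type controls (interaction 0.48 ± 0.09, adjusted p = 0.013, limma). In both genes treated knockout lay above all its controls, while the wild-type groups overlapped. Only Mia2 and Upf1 of the 15 kept the call in all 23 fits that left out 1 array.

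Further gained rises were Pir (0.44 in interaction), an iron-binding nuclear protein, Rad23b (0.42) and Glyr1 (0.41), which act in DNA repair and on nucleosomes, and Mmachc (0.39), which processes cobalamin. Rad23b had the interaction called in 1 of 4 probe sets, and 2 of the 4 had that sign. The Rad23b call ended without knockout controls 2, 6 and 7 (adjusted p = 0.064), and the Mmachc call ended without wild type with phenobarbital 3 (0.0536). Gained falls were led by Ppm1m (-0.84), the antiproliferative gene Tob2 (-0.81), the interferon signalling factor Stat2 (-0.68), tenascin Tnxb (-0.58), the import receptor Tnpo2 (-0.45) and Adap2 (-0.38). Of the 23 fits that left out 1 array, Pir was called in 13, Rad23b and Glyr1 in 8 each and Stat2 in 5. The Ppm1m call ended without wild type with phenobarbital 3 (0.0605). Of the 9 genes with an interaction and no called effect, Gas2l3 (-1.14), Plcl2 (-0.57), Cnp (-0.51) and Plin4 (-0.38) were negative and Cyp26b1 (0.92), Sftpc (0.50) and Trim23 (0.47) were among the 5 positive ones. The calls of Tob2, Tnpo2, Tnxb, Adap2, Gas2l3, Cnp and Trim23 each ended without at least 1 of the 4 arrays of wild type with phenobarbital, and those of Plin4 and Sftpc held in 3 and 5 of the 23 fits.

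Among 50 listed targets of CAR and the related receptor PXR, 39 were tested. Phenobarbital raised 18 of them in knockout (all genes higher, 1.17%) and 22 in wild type (1.95%), and lowered none in either by the adjusted test. The interaction was lower in 9 and higher in 1, Cyp2c37, against the 0.521% and 0.354% of all genes. By class, 5 were lost, 4 reduced, 10 kept, 1 enlarged and 6 undecided, so the targets did not share 1 pattern. The median effect was 0.69 in knockout and 1.02 in wild type, and the median interaction -0.23, against -0.0027 over all genes. The list holds Gadd45b and Meg3, which respond to CAR activation but do not metabolise drugs, and it was chosen with earlier results of these data known.

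Most conjugating enzymes with a class were kept. Of 38 tested, 8 were kept and 1, Sult1e1, lost, against 0.550% kept and 0.622% lost over all genes, shares that also stand against the lists that follow. Sult1e1 passed the filter only with the arrays of treated wild type. The kept ones were Gsta2, Gstm1, Gstm4, Gstt1, Gstt3, Sult1c2, Sult1d1 and Ugt2b34, with knockout effects from 0.42 (Gstt1) to 1.22 (Gsta2). Of 45 listed P450s of xenobiotic and steroid metabolism, 1 was lost, 3 were reduced, 4 kept and 1 enlarged, against 0.0579% reduced and 0.0145% enlarged over all genes. Cyp2d12, named above among the lost rises, was not in this list. Among 22 Nrf2 targets 4 were kept and 1, Abcc4, was lost, and the exporter Abcc3 was kept with 0.50 in knockout and 1.28 in wild type (interaction adjusted p = 0.066).

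Female-biased genes included 3 lost and 1 reduced response among 17 tested. Phenobarbital changed 0 of the 17 in knockout by limma's adjusted test, against 2.05% of all genes, with 5 at an unadjusted p under 0.05 there, against 14.7% of all genes. It raised 6 of the 17 in wild type, against 1.95% of all genes. The 4 with a called interaction were Cyp2b9, Cyp2b13, Sult1e1 and Prom1, all lower, and Sult1e1 was tested only because of its treated wild-type arrays. Of 24 male-biased genes 0 had the interaction called by limma, and 3 had an unadjusted p under 0.05, against 0.875% and 10.3% of all genes. Of 40 perivenous genes 3 met the rule for lost (Lgr5, Slc1a2 and Tnfrsf19), 2 were kept and 1 enlarged. The knockout controls of these 3 had medians of 4.44, 4.60 and 3.64, near or below the filter level of 4.56, so a fall of Lgr5 or Slc1a2 in knockout could hardly register and a weak rise of Tnfrsf19 could be missed. Of 27 periportal genes only Aldh1b1 had the interaction called, against 0.875% of all genes. Proliferation genes had 0 of 23 with the interaction called by limma and 0 at an unadjusted p under 0.05, against 0.875% and 10.3% of all genes.

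**Figure D5:**
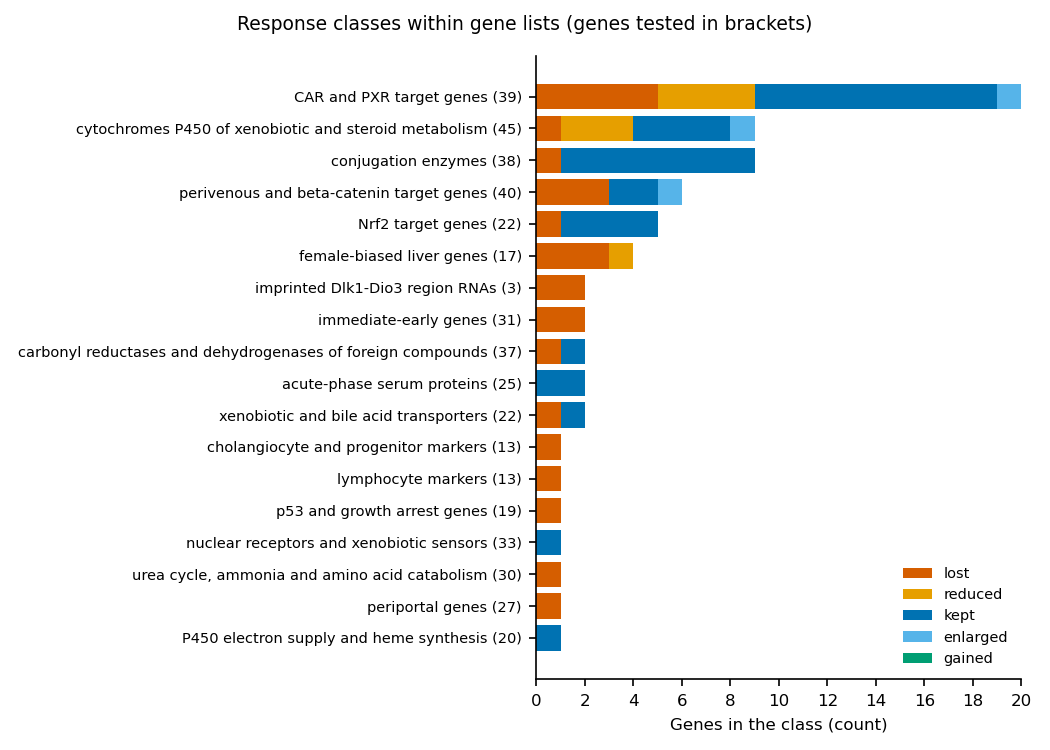
Number of genes in each response class (horizontal axis, count) within the gene lists that held at least 1 such gene (vertical axis, with the number of genes tested), with bars stacked by class. The CAR and PXR list holds 5 lost, 4 reduced, 10 kept and 1 enlarged gene, while conjugation enzymes hold 8 kept and 1 lost.

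Other genes fixed for description had no called interaction. Nr1i3, the gene of CAR, was at 5.94 to 6.77 (median 6.44) in knockout with phenobarbital and 6.09 to 8.19 (median 7.41) in knockout controls, against 8.79, 8.69, 8.62 and 8.55 in wild type with phenobarbital and 8.70, 8.56, 8.87, 8.84 and 8.65 in wild-type controls. All knockout arrays were below all wild-type arrays. The interaction was -0.70 ± 0.38 (adjusted p = 0.58, limma) over all arrays and -1.29 without knockout controls 2, 6 and 7 (adjusted p = 0.0012), which placed it among the gained falls. That setting was chosen after the data were seen. Those 3 arrays, at 6.09, 6.69 and 6.42, were its lowest knockout controls, the others being at 7.41 to 8.19. They lay within the range of treated knockout, so leaving them out enlarges the fall by itself and the p value is no support for it. Nr1i2, the gene of PXR, had an interaction of 0.43 (adjusted p = 0.36).

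Cyp3a11 stood between 14.14 and 14.46 in all groups, close to the highest value of the arrays near 14.8, so a change in it may be compressed. Cyp2c29, Cyp1a2, Cyp2e1 and Glul had interactions of 1.09, 0.59, -1.40 and 0.41 with adjusted p of 0.64, 0.42, 0.30 and 0.84 (limma). Knockout controls 2, 6 and 7 of Cyp2c29 were at 11.30, 10.05 and 11.75. Its other knockout controls were at 13.40 to 13.70, and wild-type controls at 13.37 to 13.70. Cyp2e1 was at 13.94 to 14.17 in wild type, so a change there may also be compressed. Alas1, the first enzyme of heme synthesis, rose by 3.24 in wild type (adjusted p = 0.0047) with 1.18 in knockout (0.29), but its interaction of -2.06 ± 0.83 was not called (adjusted p = 0.36, limma). Its controls spread widely, at 8.65, 7.55, 7.37, 7.10 and 10.96 in wild type and 7.88 to 10.82 in knockout. Treated arrays were at 11.12 to 12.05 in wild type and 9.56 to 11.20 in knockout. Mki67 and Ccnd1, markers of cycling cells, had interactions of -0.45 and 0.87 (adjusted p = 0.93 and 0.85).

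Promoter windows from RefSeq were found for 11120 of the 13826 tested genes and searched on both strands for the TCF and LEF core and the nuclear receptor half-sites spelled out beside the Cyp2b windows. The core was present in 12.5% of 48 lost or reduced rises, 14.8% of 27 lost falls and 10.6% of 47 kept rises, against 12.7% of all windows. A nuclear receptor half-site was present in 22.9% of lost or reduced rises, 29.6% of lost falls and 19.1% of kept rises, against 21.8% of all windows. The 17 kept falls had the core in 5.88% and a half-site in 17.6%, and the 15 gained responses in 20.0% and 13.3%, which rest on 1 to 3 genes each. A match in a window this short is a description of letters only.

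Without knockout controls 2, 6 and 7, a setting chosen after the data were seen, 273 interactions were called, and 141 responses were lost, 11 reduced, 145 kept and 90 gained. Of the 121 interactions, 105 were still called there, among them 76 of the 86 lost responses. All but Zfp106, under the mean of its probe sets, or 120, had the same sign in every alternative that held the gene. With the array of wild type with phenobarbital 3 left out, 63 interactions were called, with 1 left out 75 and with 4 left out 78.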

How the data were processed

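Liver RNA of 23 samples was measured on Affymetrix expression arrays. The deposited values are log2 intensities that the authors made with RMA, named with the package affy in the submitters' processing notes without a version. The depth of an array has no count, so the number of arrays limits the precision. Array medians were 5.09 to 5.14. Of 45037 probe sets, 34945 had 1 gene in the platform annotation, 932 several and 9160 none, and only the first kind was named, with 34741 symbols updated through RefSeq and 204 kept. Each gene was represented by 1 probe set, the one with the highest mean over all arrays, and was tested if it lay above the 40th percentile of its array (4.52 to 4.60) in at least 4 arrays, which removed 4367 genes.

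A mean per group was estimated from the 23 arrays by limma 3.58.1 (run under R 4.3.3, with the package data.table at version 1.17.8), with p values adjusted by Benjamini-Hochberg over all 13826 genes and a threshold of 0.05, on the deposited log2 values without a replicate block. The procedure was tested on simulated data. Replicate numbers were not used to pair samples. Same-numbered samples correlated by -0.70 to 0.63 (median -0.008) over 29 pairs, which cannot show whether they were paired. Alternatives were other filters, normalizations, probe set rules, weights, thresholds and left-out arrays. Sequences were read with Biopython 1.88 and plots drawn with matplotlib 3.10.9.

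The members, the 29 gene lists and the tests were chosen with earlier results of these data known. The named genes were Ctnnb1, those of each class and direction with the largest interaction (for kept responses, the largest smaller effect), list members with a called interaction, and a fixed set of markers. Por, one of those markers, was not tested.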

Additional observations from a re-analysis of the deposited data

Results flagged for a closer look

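The phenobarbital effect differed between genotypes in 121 genes by the interaction term, and these are described above. Among 69 named genes, 276 groups of arrays were examined for a single array far from the rest of its group by Dixon's test. It marked 16 arrays, while chance marks about 1 in 20 groups, which is close to that number. In knockout with phenobarbital these were Cyp2b13 in replicate 5 (8.92), Ppm1m in replicate 6 (7.10) and Stat2 in replicate 3 (7.16). In knockout controls they were Cyp26b1 (6.65) and Dnaic1 (4.51) in replicate 1, Gadd45b in replicate 7 (8.10) and Sema3e in replicate 5 (3.89). In wild type with phenobarbital they were Aldh1b1 (8.92) and Mia2 (5.30), both in replicate 2. In wild-type controls they were Cyp2e1 (13.94), Rab5c (8.27) and Tspyl4 (9.01) in replicate 3, Cyp2g1 (7.23), Ppm1m (6.64) and Stat2 (6.41) in replicate 4, and Sema3e in replicate 2 (5.87).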

How the results depend on the processing

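Of the 40 alternatives, those of threshold, ratio and fits within each genotype do not refit the interaction and are not part of the next counts. In every other alternative that held the gene, 120 of the 121 interactions had the same sign. The exception was Zfp106 under the mean of probe sets. In all those fits 44 stayed at an adjusted p under 0.05. Leaving out 1 array gave 63 to 146 called interactions, 157 to 408 knockout and 315 to 664 wild-type effects, 2667 to 3903 starting and 1798 to 3287 treated differences, 52 to 98 lost, 3 to 12 reduced, 56 to 102 kept, 5 to 22 gained, 0 to 2 enlarged and 0 to 3 reversed responses, 2 to 14 interactions alone and 381 to 717 undecided genes. Counts beyond 1.5 times those reported were as follows, and their cause was not tested except where the threshold, the ratio or the number of arrays itself sets it. Array weights gave 323 interactions, 461 knockout, 1503 wild-type and 4574 treated calls, with 221 lost, 19 reduced, 156 kept, 47 gained, 12 reversed, 22 interactions alone and 1324 undecided. 1 weight per group gave 126 knockout, 1241 wild-type and 4576 treated calls, with 130 lost, 13 reduced and 1074 undecided. Fits within each genotype gave 100 knockout and 929 wild-type calls, with 40 kept, 8 gained, 14 interactions alone and 832 undecided. The replicate block, which treats same-numbered samples as a set, gave 1967 starting and 1606 treated calls, with 9 gained, 1 enlarged and 4 interactions alone. It had 96 interactions, 82 of them shared. A threshold of 0.1 gave 540 knockout and 807 wild-type calls, with 16 reduced, 127 kept, 7 reversed and 907 undecided. A threshold of 0.01 gave 46 interactions, 88 knockout, 240 wild-type, 1569 starting and 1268 treated calls, with 38 lost, 3 reduced, 24 kept, 3 gained, 0 enlarged, 0 reversed, 2 interactions alone and 233 undecided. A ratio of 25% gave 14 reduced. The 60th percentile as filter gave 3 reversed and 4 interactions alone, quantile normalization 2 reversed, and the mean of probe sets 1 enlarged, 5 reversed and 3 interactions alone. 2 alternatives were chosen after the data were seen. Without knockout controls 2, 6 and 7 there were 273 interactions, 786 knockout, 810 wild-type and 1535 starting calls, with 141 lost, 145 kept, 90 gained, 7 reversed, 21 interactions alone and 1033 undecided. A filter at the 40th percentile of genes gave 3 reversed and 5 interactions alone. Genes at background, such as Pnliprp1 and Tnfrsf19 in knockout, have values whose size the arrays cannot resolve.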

Other observations

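Cholesterol synthesis and bile acid genes had no interaction called by limma over all arrays, although 10 of 27 had an unadjusted p under 0.05, all lower (4.89% of all genes), and 22 of 27 lay below 0 (50.6% of all genes). Without knockout controls 2, 6 and 7, a setting chosen after the data were seen, 10 of the 27 had a lower interaction, against 1.16% of all genes in that setting, and 8 were gained falls, against 0.347%. The interaction there was -0.91 for Hsd17b7, -0.84 for Lss, -0.83 for Fdps, -0.82 for Nsdhl and -0.66 for Cyp51 (adjusted p = 0.016, 0.039, 0.0079, 0.00095 and 0.019, limma), which are enzymes of the sterol pathway. The 3 arrays left out had the lowest means of the 27 genes among knockout controls, at 10.15, 9.84 and 10.32. The other knockout controls were at 10.52 to 10.61 and treated knockout at 10.06 to 10.36. Leaving out low controls enlarges a fall by itself. These 3 arrays also held the highest means of macrophage markers, and the part of other cells in the difference between both settings was not tested.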
